A study of Mus musculus with 6 samples.

Results

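Immediate early and stress-induced transcription factors were described here through 10 genes taken by name: the Fos family genes Fos and Fosl1, the Jun family genes Jun, Junb and Jund, the zinc finger genes Egr1, Egr2 and Klf4, and the stress factors Atf3 and Ddit3. Each of the 10 had 1 probe set on the arrays, so 10 of the 19938 genes measured in the series are meant. The series held 6 mouse whole-transcript arrays, 1 per group, from 3 established cell lines: the macrophage line RAW264.7, and as fibroblasts L929, from connective tissue, and NIH3T3, from embryos. Every line gave RNA after 4 h of interferon-beta (IFN-β) and RNA of unstimulated cells, with no other agent or allele named in the labels and no replicate array of any group, and the labels do not say whether the 2 arrays of a line came from separate cultures. Where a test was made, the 3 lines served as replicates of the IFN-β effect, so p-values measure the spread between these lines and arrays.

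Fos and Jun proteins pair to form AP-1, a dimeric transcription factor that binds enhancers of growth, stress and inflammatory genes. In most cells Fos, Jun and Junb, together with Egr1, Egr2 and Klf4, are switched on within minutes of a signal such as serum, a growth factor or a microbial product. This runs through MAP kinases and the serum response factor, and their short-lived transcripts decline soon afterwards. Arrays at 4 h alone would not show a rise that had ended by then. Atf3 and Ddit3, the gene of the protein CHOP, belong to the response to amino acid shortage and misfolded protein and are also switched on by inflammatory signals. Type I interferon acts by another route, in which receptor-bound kinases lead to binding at the interferon-stimulated response element (ISRE) of antiviral genes.

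Promoters are shown for the 3 genes whose level was above the unstimulated level in each of the 3 lines, Atf3, Egr2 and Junb, and for Ifit1, an antiviral gene with one of the largest responses in these arrays. The sequences are RefSeq's (GRCm38.p6), 5′ to 3′ on the gene's strand, and end at the base before the annotated transcription start. Capitals mark matches, on either strand, to the ISRE core (GAAA, any 2 bases, GAAA), the GAS motif TTCNNNGAA and the AP-1 site TGANTCA. Marked too are the CArG box of the serum response factor and TGACGT of the cAMP response element (CRE), to which Atf3 and its relatives bind. TGACGT is called the CRE half-site here, and the shorter TGACG was not searched.

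Atf3, chr1:191183334-191183583, minus strand: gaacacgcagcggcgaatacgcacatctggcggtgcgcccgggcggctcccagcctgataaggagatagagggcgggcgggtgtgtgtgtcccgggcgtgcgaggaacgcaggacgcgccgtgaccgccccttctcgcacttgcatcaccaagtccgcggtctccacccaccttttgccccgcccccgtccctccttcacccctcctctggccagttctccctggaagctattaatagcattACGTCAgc

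Egr2, chr10:67537619-67537868, plus strand, the third of 5 annotated starts: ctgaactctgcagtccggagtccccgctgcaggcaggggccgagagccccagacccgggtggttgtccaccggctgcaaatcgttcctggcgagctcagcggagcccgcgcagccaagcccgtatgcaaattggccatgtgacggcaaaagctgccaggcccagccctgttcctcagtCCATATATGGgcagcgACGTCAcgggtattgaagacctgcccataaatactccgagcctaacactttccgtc

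Junb, chr8:84978749-84978998, minus strand: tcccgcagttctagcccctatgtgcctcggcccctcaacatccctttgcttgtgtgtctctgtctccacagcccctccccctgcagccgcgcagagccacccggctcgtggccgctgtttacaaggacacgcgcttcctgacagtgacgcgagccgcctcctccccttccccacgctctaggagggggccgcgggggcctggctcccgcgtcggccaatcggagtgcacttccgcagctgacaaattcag

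Ifit1, chr19:34640639-34640888, plus strand: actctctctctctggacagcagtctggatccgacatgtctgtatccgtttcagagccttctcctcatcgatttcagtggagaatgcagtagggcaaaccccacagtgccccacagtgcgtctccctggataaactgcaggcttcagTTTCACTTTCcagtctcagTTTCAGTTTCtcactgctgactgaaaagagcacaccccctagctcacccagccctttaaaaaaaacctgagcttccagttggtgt

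In the 250 bases shown, Ifit1 had 2 ISRE cores, Atf3 had a CRE half-site at position -8 from the start, Egr2 had a CArG box at -72 and a CRE half-site at -56, and Junb had no match to any of the 5 motifs. Of the other interferon control genes, Cxcl10 had 1 ISRE core, at -213, and an AP-1 site at -74, while Irf7 had no ISRE core and a CRE half-site at -91. The RefSeq table gave promoters of 8 of the 10 factor genes that could be used here. Fosl1 had no entry and the promoter of Egr1 was not searched, so neither is counted as lacking a motif. In the 250 bases before the start, 0 of these 8 held an ISRE core and 0 a GAS motif. A CRE half-site was held by 3 (Fos, Egr2 and Atf3), an AP-1 site by 1 (Ddit3) and a CArG box by 1 (Egr2). Bases farther upstream were not searched, so a gene without a match here may hold one there. Among all 32851 promoter windows of this length in the table, 2.98% held an ISRE core, 7.02% a GAS motif, 6.75% an AP-1 site, 6.47% a CRE half-site and 1.47% a CArG box. Windows of a gene with several starts overlap, and Egr2 was counted over its 5 starts. The motifs do not overlap each other in the sequences shown, and a match is a run of letters, not a measured binding site.

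The markers of each line's kind were high as lists, though not gene by gene. The median log2 level of the 10 macrophage markers was 10.72 and 10.59 in stimulated and unstimulated RAW264.7 and lay between 4.13 and 4.36 on the 4 fibroblast arrays. That of the 10 fibroblast markers was 4.66 and 4.90 in stimulated and unstimulated RAW264.7, 8.96 and 9.43 in L929, and 10.50 and 10.64 in NIH3T3. Among the fibroblast markers Thy1 was low in L929, at 5.05 with IFN-β and 4.96 without, Postn was at or below 5.22 on every array, and Vim was high in RAW264.7 too, at 10.54 on both arrays. The medians of 6 epithelial markers lay between 4.80 and 5.43 and those of 5 lymphocyte markers between 4.25 and 4.52. All 4 interferon control genes measured were past 3-fold in each line and rose in the test of the next paragraph, from Irf7 with a mean log2 change of 3.96 to Ifit1 with 6.33 (Cxcl10 6.20, Usp18 5.56). The array of stimulated NIH3T3 stood apart in scale. Its median over all probe sets was 5.05, against 4.77 in unstimulated NIH3T3, while the other 4 arrays lay between 4.72 and 4.82. Over all genes the median log2 change was -0.03 in RAW264.7, -0.05 in L929 and 0.17 in NIH3T3. The shift in NIH3T3 was not the same at all levels. Over all probe sets the lower quartile was 3.62 stimulated and 3.34 unstimulated, and the upper quartile 7.09 and 7.01. Changes in NIH3T3 are read beside the median shift, which need not hold for bright genes. The 4 brightest housekeeping genes had log2 changes in NIH3T3 of -0.79 for Actb, -0.78 for Ppia, -0.57 for Rplp0 and -0.46 for Pgk1, and 0 of the 4 passed the test over the lines. In NIH3T3 the median change was -0.46 over the 9 housekeeping genes and -0.02 over the 10 fibroblast markers. Some single bright genes of that pair, named after their values were seen, went both ways. The changes were 0.27 for Col1a1, 0.45 for Col1a2 and -0.03 for B2m, but -0.30 for Vim and -0.36 for Thy1.

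None of the 10 factors passed the test of an IFN-β effect common to the lines. The test was limma with cell line as a block, called at a Benjamini-Hochberg adjusted p under 0.05 over 19938 genes. It called 0.732% of all genes higher and 0% lower, and 0 of the 10 factors in either direction. At an unadjusted p under 0.05 there were 3 of the 10, namely Atf3, Junb and Egr2, and 838 genes higher and 254 lower in all. The median of the 10 mean log2 changes was 0.13, against 0.03 over all genes, and 8 of the 10 lay above 0 and above the median of all genes. Mean changes ran from -0.11 for Jund to 0.76 for Atf3.

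**Figure D1:**
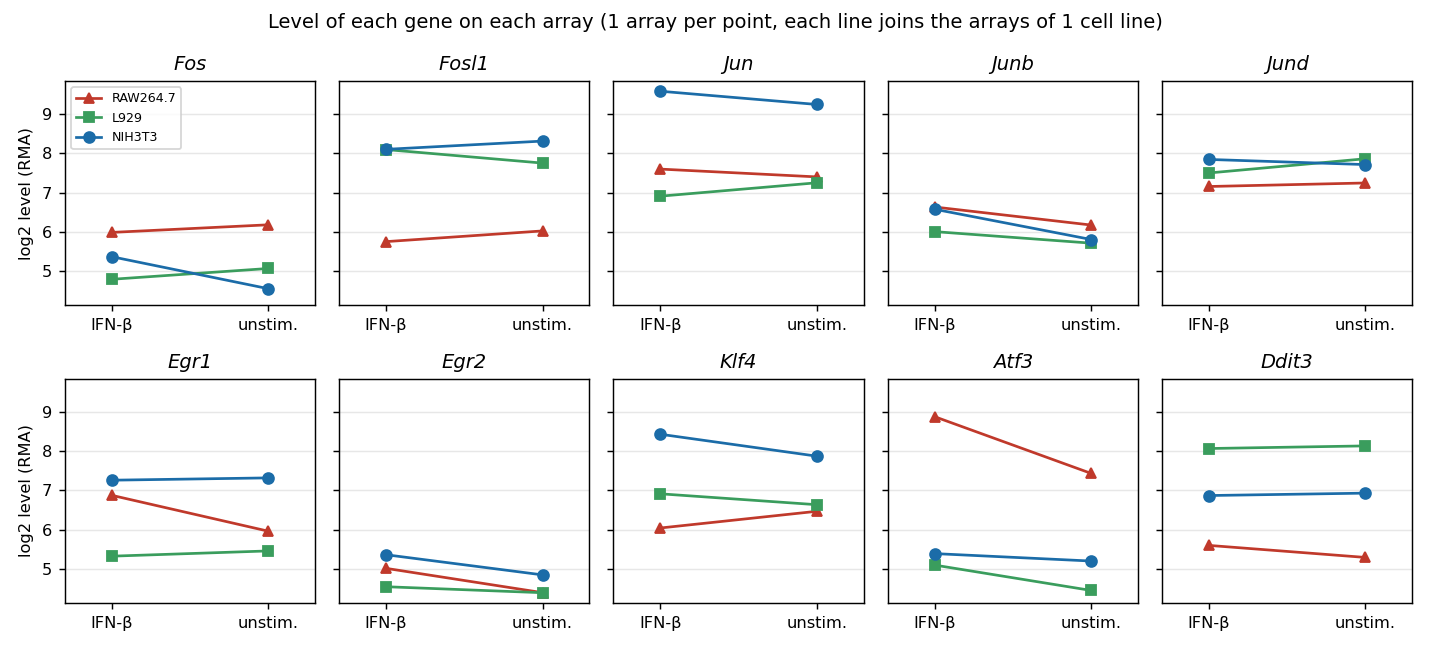
Log2 level (vertical axis) of the 10 genes on each array, with the IFN-β array left of the unstimulated array and 1 array per point. Lines join the 2 arrays of a cell line. Atf3 lies highest in RAW264.7, at 8.88 and 7.43, Jun lies highest in NIH3T3, Fosl1 lowest in RAW264.7, and the 3 lines are apart for Ddit3.

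Atf3 (probe set 10361091), whose product is induced by Toll-like receptor signals in macrophages and restrains cytokine genes, had the largest change of the 10. In RAW264.7 its log2 level was 8.88 with IFN-β and 7.43 without, in L929 5.09 and 4.45, and in NIH3T3 5.39 and 5.20. The stimulated array was the higher of the pair in each line, and both RAW264.7 arrays lay far above the 4 fibroblast arrays. On those 4 arrays Atf3 lay between percentiles 37.9 and 49.7 of all genes, with no background call given. The log2 changes were 1.45, 0.65 and 0.19 in the same order of lines, or 2.73-fold, 1.57-fold and 1.14-fold. Their mean was 0.76 ± 0.64 (SD between lines, n = 3), with a limma interval of 0.25 to 1.27 at an unadjusted 95% and an adjusted p of 0.449. In NIH3T3 the value of 0.19 is close to the shift of that array, and it became -0.08 with arrays centred on their medians and with quantile normalization. Without the NIH3T3 arrays the mean was 1.05 (limma adjusted p = 0.149), and without the RAW264.7 arrays it was 0.42 (adjusted p = 1), so the size of the mean rested on the macrophage line.

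In RAW264.7 Atf3 was the single factor of the 10 past 2-fold, where 1.14% of all genes were at least 2-fold higher. A change of 1.45 or more was reached by 136 genes, 0.682% of those measured in that line. No factor was past 3-fold in any line. At that threshold, the one of the series' design text, 0.617% of genes were past it in either direction in RAW264.7, 0.903% in L929 and 0.517% in NIH3T3. At 2-fold in either direction the shares were 1.21%, 1.95% and 2.02%, and 0 of the 10 passed in L929 and NIH3T3.

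Junb (10580282), a Jun protein that often restrains proliferation, had a positive change in each line. Its log2 level was 6.63 with IFN-β and 6.17 without in RAW264.7, 6.01 and 5.71 in L929, and 6.58 and 5.80 in NIH3T3. The 3 stimulated arrays and the 3 unstimulated arrays overlapped in level, because the stimulated L929 array lay below the unstimulated RAW264.7 array. The log2 changes were 0.46, 0.29 and 0.77, with a mean of 0.51 ± 0.24 (SD, n = 3 lines), a limma interval of 0.13 to 0.89 and an adjusted p of 0.599. In each line the value was also above the median change of all genes, by 0.49, 0.34 and 0.61, and it kept its sign under both rescalings.

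Egr2 (10363735), a zinc finger factor of myelination and of macrophage activation, was the third gene with a positive change in every line. Its log2 level was 5.01 and 4.39 in stimulated and unstimulated RAW264.7, 4.54 and 4.39 in L929, and 5.36 and 4.84 in NIH3T3. All of these are near the array medians, and the deposited table gives no call of whether a probe set is above background. The log2 changes were 0.62, 0.15 and 0.51, with a mean of 0.43 ± 0.25 (SD, n = 3 lines), a limma interval of 0.05 to 0.81 and an adjusted p of 0.819. With arrays centred on their medians the NIH3T3 value was 0.24.

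**Figure D2:**
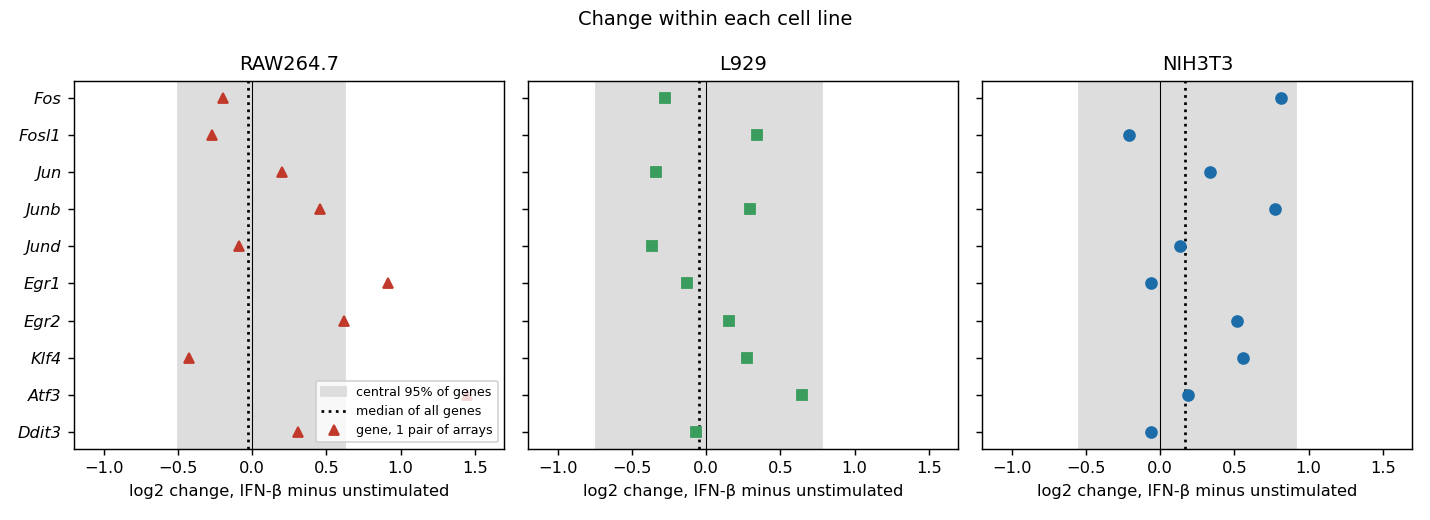
Log2 change (horizontal axis, IFN-β minus unstimulated, 1 pair of arrays per point) of each gene in each cell line, with the central 95% of all genes shaded and their median dotted. In RAW264.7 Atf3, at 1.45, and Egr1, at 0.92, lie outside the shaded range of -0.50 to 0.63, and no point does in L929 or NIH3T3.

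Egr1 (10454782), the zinc finger factor most widely used as a marker of a recent signal, differed in sign between the lines. Its log2 level was 6.87 with IFN-β and 5.96 without in RAW264.7, 5.32 and 5.45 in L929, and 7.26 and 7.32 in NIH3T3. The pair stood apart in RAW264.7 and was close together in both fibroblast lines. The log2 changes were 0.92, -0.13 and -0.06, with a mean of 0.24 ± 0.59 (SD, n = 3 lines) and a limma adjusted p of 0.964. Without the RAW264.7 arrays the mean was -0.10. In RAW264.7 263 genes, 1.32% of those measured, had a change at least as large.

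Klf4 (10513008), a factor of epithelial barriers, of monocyte differentiation and of growth arrest, ran the other way. Its log2 level was 6.04 with IFN-β and 6.47 without in RAW264.7, 6.91 and 6.63 in L929, and 8.43 and 7.87 in NIH3T3. The changes were -0.43, 0.28 and 0.56, with a mean of 0.14 ± 0.51 (SD, n = 3 lines; limma adjusted p = 0.967), and without the NIH3T3 arrays the mean was -0.07. In RAW264.7 894 genes, 4.48% of those measured, had a change as low or lower.

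The other AP-1 genes, Fos, Jun, Fosl1 and Jund, each differed in sign between the lines. Fos (10397346) had log2 levels of 5.99 with IFN-β and 6.18 without in RAW264.7, 4.79 and 5.06 in L929, and 5.37 and 4.55 in NIH3T3. Its changes were -0.19, -0.28 and 0.82, and the last was 0.54 with arrays centred on their medians. In unstimulated NIH3T3 Fos lay at percentile 39.5 of all genes, with no background call given. Without the NIH3T3 arrays the mean change of Fos was -0.24, against 0.12 with them. The stimulated NIH3T3 array was thus the single stimulated array above its pair.

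Jun (10514466) had levels of 7.60 and 7.40 in stimulated and unstimulated RAW264.7, 6.91 and 7.25 in L929, and 9.59 and 9.25 in NIH3T3, and changes of 0.20, -0.34 and 0.34. Its mean change of 0.06 became -0.02 with arrays centred on their medians and 0.11 with quantile normalization. Fosl1 (10460585), the gene of a Fos relative without the strong activation domain of Fos, had levels of 5.75 and 6.02, 8.10 and 7.75, and 8.10 and 8.31 in stimulated and unstimulated RAW264.7, L929 and NIH3T3, and changes of -0.27, 0.35 and -0.21. Jund (10572456), the Jun gene that resting cells express most steadily, had levels of 7.16 and 7.25, 7.50 and 7.86, and 7.85 and 7.72 in that order. Its changes were -0.09, -0.36 and 0.13. The NIH3T3 value was -0.14 with arrays centred on their medians and 0.12 with quantile normalization. For these 4 genes the limma adjusted p-values ran from 0.967 to 0.986. The 95% intervals of the mean change reached no higher than 0.61, for Fos, and no lower than -0.49, for Jund. This bounds an effect at 4 h common to the lines without showing that there is none, and earlier times were not sampled.

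Ddit3 (10366881), the gene of CHOP, which promotes cell death under prolonged stress of the endoplasmic reticulum, differed less between conditions than between lines. Its log2 level was 5.60 with IFN-β and 5.29 without in RAW264.7, 8.07 and 8.13 in L929, and 6.87 and 6.93 in NIH3T3. The changes were 0.31, -0.07 and -0.06, and the limma interval of their mean was -0.31 to 0.43 (adjusted p = 0.977). Its mean change of 0.06 was -0.02 with arrays centred on their medians and again 0.06 with quantile normalization.

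The 10 factors were also set beside all genes of their line. Their median log2 change was 0.25 in RAW264.7, against -0.03 over all genes, 0.04 in L929, against -0.05, and 0.26 in NIH3T3, against 0.17. In RAW264.7 6 of the 10 lay above the median of all genes, in L929 5 and in NIH3T3 6. With arrays centred on their medians, the median of the 10 was 0.28, 0.05 and -0.01 in the same order of lines. In NIH3T3 quantile normalization left the bright factors near their unscaled values, such as Klf4 at 0.57, against 0.56 unscaled and 0.29 with centring. In RAW264.7 2 of the 10, Atf3 and Egr1, were above the central 95% of all genes, which ran from -0.50 to 0.63, and in L929 (-0.74 to 0.78) and NIH3T3 (-0.55 to 0.92) 0 were outside it.

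The response of RAW264.7 was set against the mean response of both fibroblast lines with an interaction term in limma. It called 0.236% of all genes and 0 of the 10 factors, and each adjusted p among the 10 was 1. That share stands for 47 genes, and the count was 0 with arrays centred on their medians and with quantile normalization. The fit has 1 residual degree of freedom and gives every gene a standard error of 0.49, so that only large differences can pass. Atf3 differed by 1.03 (1.45 in RAW264.7 against a fibroblast mean of 0.42), with an unadjusted 95% interval of 0.06 to 1.996. For Egr1 the difference was 1.01, with an interval of 0.04 to 1.98, and for Klf4 it was -0.84, with an interval of -1.81 to 0.12. The other 7 differences lay between -0.46 for Fos and 0.37 for Ddit3. Their intervals reached down to -1.43 for Fos and up to 1.34 for Ddit3. RAW264.7 had 1 pair of arrays, so a difference of the macrophage line and the variation of that pair cannot be told apart.

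**Figure D3:**
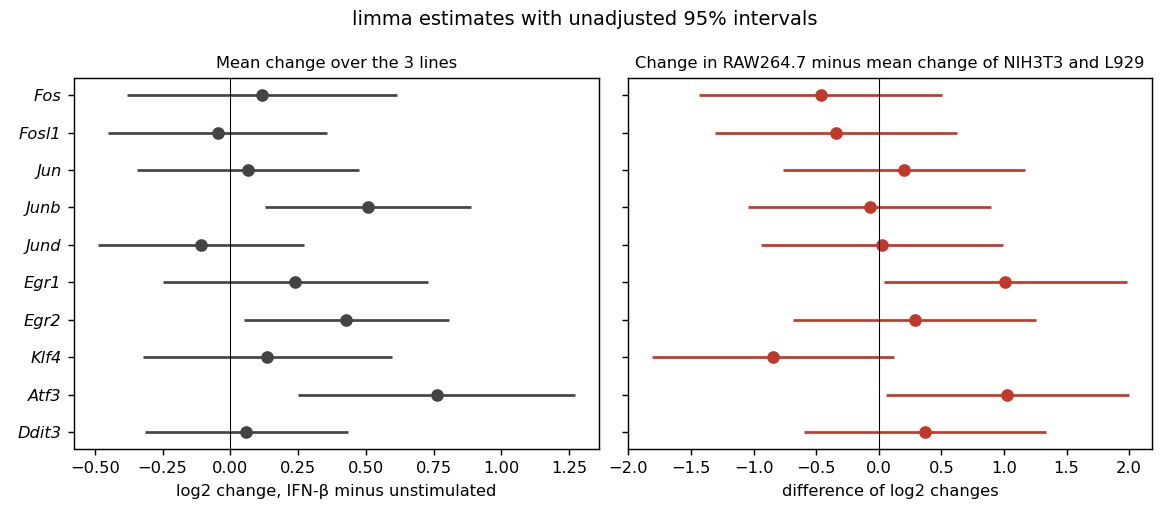
limma estimates (points) with unadjusted 95% intervals (bars) of the mean log2 change over 3 lines, left, and of the change in RAW264.7 minus the mean change of L929 and NIH3T3, right. On the left the intervals of Atf3, Junb and Egr2 lie above 0, and on the right those of Atf3 and Egr1 do. No adjusted p was under 0.05.

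Levels differed between the cell lines for most of these factors. They were compared in the same limma fit, with treatment in the model, over the 2 arrays of each line. Both arrays share the line, so the test covers these arrays and not macrophages or fibroblasts at large. RAW264.7 was higher than the mean of both fibroblast lines for 2 of the 10, Atf3 and Fos, where 13% of all genes were called higher. It was lower for 4, Fosl1, Ddit3, Klf4 and Jun, where 12.3% of all genes were called lower. So 6 of the 10 were called in one direction or the other.

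Atf3 was 3.12 ± 0.24 (SE) higher in log2 level in RAW264.7 than in the fibroblast lines (limma adjusted p = 5.39e-06), with mean levels of 8.15 in RAW264.7, 4.77 in L929 and 5.29 in NIH3T3. L929 and NIH3T3 did not pass (difference -0.52, adjusted p = 0.281). Fos was 1.14 ± 0.24 higher in RAW264.7 (adjusted p = 0.00504), at 6.08 against 4.93 in L929 and 4.96 in NIH3T3, and the fibroblast lines differed by -0.03 (adjusted p = 0.966).

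Fosl1 had the opposite order from Fos. RAW264.7 differed from the fibroblast lines by -2.18 ± 0.19 (adjusted p = 1.37e-05), with a mean of 5.89 against 7.93 in L929 and 8.21 in NIH3T3, and L929 and NIH3T3 did not pass (-0.28, adjusted p = 0.494). Ddit3 separated all 3 lines, with mean levels of 5.44 in RAW264.7, 8.10 in L929 and 6.90 in NIH3T3. The difference was -2.66 for RAW264.7 minus L929 (adjusted p = 6.43e-06), -1.46 for RAW264.7 minus NIH3T3 (adjusted p = 0.000406) and 1.20 for L929 minus NIH3T3 (adjusted p = 0.00268).

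Jun, Klf4 and Egr1 were highest in NIH3T3. Jun averaged 7.50 in RAW264.7, 7.08 in L929 and 9.42 in NIH3T3. RAW264.7 and L929 did not differ past the threshold (0.42, adjusted p = 0.272), and both lay below NIH3T3, by differences of -1.92 (adjusted p = 0.000113) and -2.34 (adjusted p = 5.65e-05). Its call against the fibroblast mean therefore rested on NIH3T3: without those arrays the difference was 0.42 in place of -0.75. Klf4 averaged 6.25 in RAW264.7, 6.77 in L929 and 8.15 in NIH3T3, with no call between RAW264.7 and L929 (-0.52, adjusted p = 0.216), and its difference from the fibroblast mean of -1.21 lost its call without NIH3T3 (-0.52, adjusted p = 0.135). Egr1 averaged 6.42 in RAW264.7, 5.39 in L929 and 7.29 in NIH3T3, and each neighbouring pair differed (RAW264.7 minus L929 1.03, adjusted p = 0.0215; RAW264.7 minus NIH3T3 -0.87, adjusted p = 0.0376). The difference from NIH3T3 was -0.60 with arrays centred on their medians (adjusted p = 0.152).

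Junb, Jund and Egr2 differed least between the lines, with ranges over the 6 arrays of 0.92, 0.71 and 0.97, and passed in none of the 4 level comparisons. Some of their values were near the threshold. Jund in RAW264.7 was -0.53 from the fibroblast mean (adjusted p = 0.0573), and -0.63 with quantile normalization (adjusted p = 0.0172). Junb was 0.38 above it (adjusted p = 0.174), and 0.57 above it with arrays centred on their medians (adjusted p = 0.0219).

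Counted by pair of lines, RAW264.7 was higher than NIH3T3 for 2 factors and lower for 5, where 12.8% of all genes were called higher and 12.5% lower. RAW264.7 was higher than L929 for 3 and lower for 2, where the shares were 10.8% and 8.86%. L929 was higher than NIH3T3 for 1, Ddit3, and lower for 3, Jun, Egr1 and Klf4, where the shares were 7.09% and 9%.

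**Figure D4:**
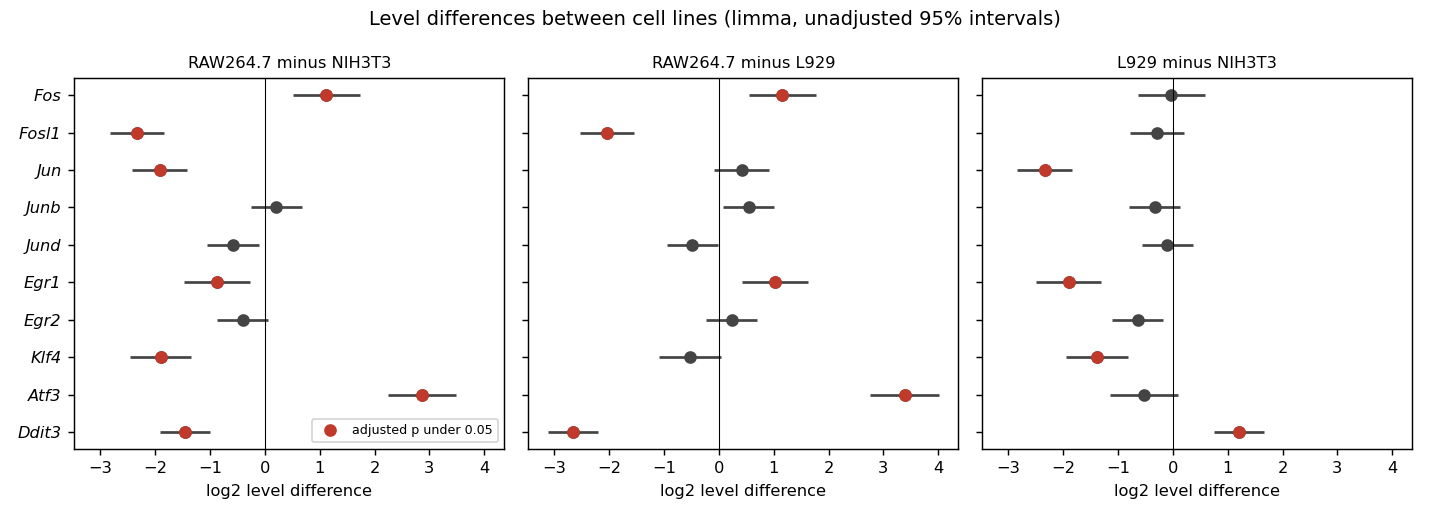
Difference in log2 level between cell lines for each gene (points, limma over the 2 arrays of each line, with unadjusted 95% intervals as bars). Red points have an adjusted p under 0.05. Atf3 reaches 3.38 for RAW264.7 minus L929, and Junb, Jund and Egr2 have no red point.

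Genes of the same pathways were counted from lists that were chosen with earlier results of these data known. Among 15 partners of AP-1 and small Maf proteins, 1 rose and 0 fell in the test over the lines, where 0.732% of all genes rose and 0% fell. This was Batf2, a partner of Jun proteins and an interferon-induced gene, whose log2 level was 8.02 with IFN-β and 5.39 without in RAW264.7, 9.77 and 5.51 in L929, and 6.06 and 4.98 in NIH3T3. Its mean log2 change was 2.65 ± 0.44 (SE, limma adjusted p = 0.0228), and it was past 3-fold in RAW264.7 and L929 but not in NIH3T3. Mafk, a small Maf protein that forms dimers with other bZIP factors, had the second largest mean in the list and missed the threshold, with changes of 0.88, 0.81 and 0.72 in RAW264.7, L929 and NIH3T3 (adjusted p = 0.0655). Crem, a CRE-binding factor, had a mean change of 0.47.

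Of 23 other immediate early genes 0 passed in either direction, where 0.732% of all genes passed as higher and 0% as lower. At that share a list of this size would often hold no call. The median mean change of the 23 was 0.15. The 3 largest were those of Zfp36, whose product destabilises cytokine mRNAs, with changes of 1.32, 0.70 and 0.44 in RAW264.7, L929 and NIH3T3 (adjusted p = 0.176), of Ccn1, a matrix signalling protein gene, with 1.36, -0.06 and 0.11, and of the prostaglandin synthase gene Ptgs2, with 1.19, 0.07 and -0.13. Ccn1 was low in RAW264.7, at 5.20 with IFN-β and 3.84 without, the latter below that array's median of 4.76. The change in RAW264.7 minus the fibroblast mean was 1.34 for Ccn1 and 1.23 for Ptgs2, and neither passed the interaction test described above (limma adjusted p = 1 for both, unadjusted p = 0.00668 for Ccn1 and 0.0131 for Ptgs2).

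Of 12 genes of the serum response and MAP kinase route 0 passed, and the largest mean change was that of Map2k1, the gene of a kinase that activates ERK, with changes of 0.67, 0.67 and 0.96 (adjusted p = 0.0967). Rps6ka5 and Mrtfa followed, with means of -0.29 and -0.26. Of 13 genes of MAP kinase feedback 0 passed, with Dusp5, a nuclear ERK phosphatase, at a mean of 0.47, Dusp10 at 0.28 and Dusp2 at 0.27. Of 19 genes of the integrated stress response, which runs through Atf4 to Atf3 and Ddit3, 0 passed. The kinase gene Eif2ak3 had a mean change of -0.53, the glutathione-degrading enzyme gene Chac1 one of 0.38 and the cystine transporter gene Slc7a11 one of -0.30, while Atf4 itself was at 0.05. The medians of these 3 lists were -0.10, 0.16 and -0.03, against 0.03 over all genes. With 0.732% of all genes called higher and 0% lower, 0 calls in lists of this size say little about these pathways.

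**Figure D5:**
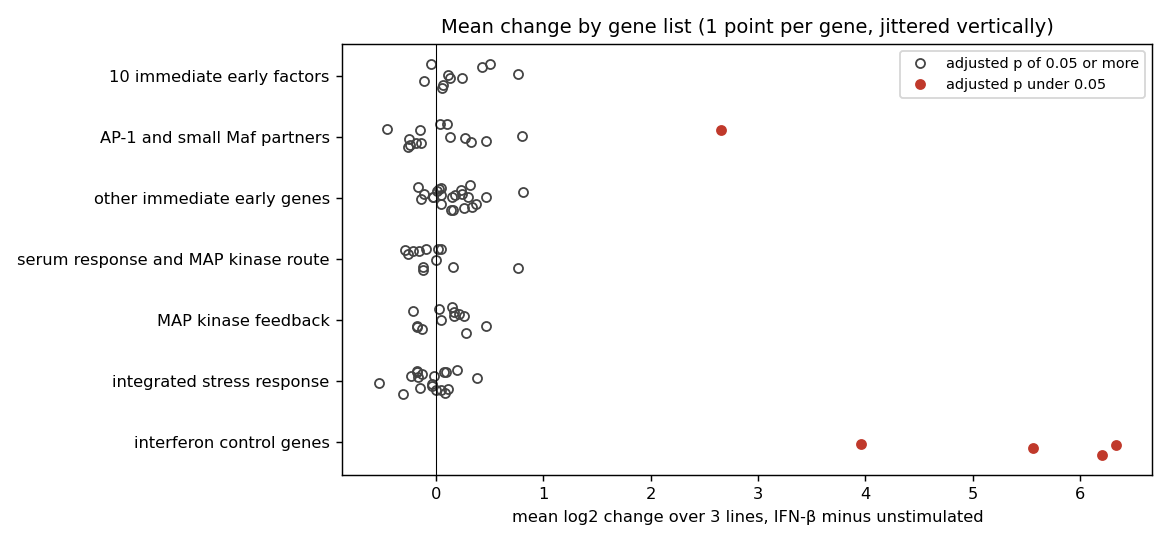
Mean log2 change over the 3 lines (horizontal axis) of every measured gene of each list, 1 point per gene, with red points for a limma adjusted p under 0.05. Batf2, at 2.65, and the 4 interferon control genes, from 3.96 to 6.33, are the red points shown, and the 10 immediate early factors lie between -0.11 and 0.76.

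The genes most alike in level were those with the highest Pearson correlation over the 6 arrays, a description in which the 2 arrays of a line are not independent. For Atf3 they were Clec7a (r = 0.999), Zfp109 (0.999) and Arhgap17 (0.998), for Ddit3 Plod2 (r of 1 after rounding), Kdelr3 (0.998) and Pwwp3b (0.998), and for Jun Ralgds (0.999), Epha4 (0.998) and Mmp16 (0.998). Clec7a, the gene of the beta-glucan receptor of macrophages, had levels of 5.51 and 4.83 in stimulated and unstimulated RAW264.7, 3.56 and 3.22 in L929, and 3.67 and 3.62 in NIH3T3, the order of Atf3. Junb was most like Atp13a5 (0.993), Nutm1 (0.989) and Rab11fip4 (0.989), and Egr2 most like Olfr700 (0.992), A630012P03Rik (0.991) and Sprr2i (0.989). With 6 points such values are common. A correlation over 0.9 was reached by 811 genes with Atf3, 586 with Ddit3, 1003 with Jun, 132 with Junb and 217 with Egr2.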

How the data were processed

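Per the labels' protocols, the RNA of each sample was labelled by a whole-transcript method for Affymetrix arrays, 1 array a sample. The authors deposited log2 values made with RMA, per the submitters' processing notes. The RMA version and settings were not given in the sources used here, and the log base was read from the range of the values. Probe sets of a single gene (21789 of 35557) were used, with symbols checked by Entrez ID, and for genes with several the one with the highest mean was kept. No filter on low levels was applied.

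Tests were made with limma 3.58.1 in R 4.3.3, with cell line as a block because the 2 arrays of a line share that line (2 residual degrees of freedom, prior 7.87), and Benjamini-Hochberg adjustment over 19938 genes. limma draws the spread of each gene toward that of all genes. Changes within a line have no test. Promoter motifs were searched in the 250 bases before each RefSeq start. Figures were drawn in Python 3.11.15 with matplotlib 3.10.9.

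The 10 genes, the 11 gene lists, the motifs and the tests were chosen with earlier results of these data known. Genes named from the lists are those that passed or were past 3-fold in a line, the 3 with the largest mean change in size and the 4 brightest housekeeping genes, with marker lists given by their medians; the most alike genes are given for the 3 factors with the largest mean change and the 3 with the widest range of level (Atf3 is both); Atf4, B2m, Col1a1, Col1a2, Thy1, Postn and Vim were named outside this rule after their values were seen. Of the housekeeping list 0 of 9 genes passed (median mean change -0.23), as did 0 of 10 macrophage, 0 of 10 fibroblast, 0 of 6 epithelial and 0 of 5 lymphocyte markers. The share over all genes was 0.732% higher and 0% lower. Data of 19938 genes were simulated with the spread of each gene drawn from limma's prior. For the test over lines the set change was the same in every line and other genes had none. Changes of the 10 factors differed by line, so the shares found do not give the power for them. In these data 64% of genes set to a log2 change of 1, and 100% of those set to 2, were found by the test over lines (182 true and 14 false calls). For the interaction these shares were 2% and 54% (128 true and 35 false calls), so its calls are less reliable than the threshold states. The level test of RAW264.7 against the fibroblast lines recovered 56% at 1 and 98% at 2. Alternatives were the mean over probe sets, median centring, quantile normalization, a filter at the median level, empirical Bayes with a trend and robustly, an adjusted p under 0.1, other fold thresholds, each line left out, and models without the block or the treatment term.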

Additional observations from a re-analysis of the deposited data

Results flagged for a closer look

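For 4 genes the pairs of arrays of L929 and NIH3T3 moved in opposite directions, and these differences between the fibroblast lines were not tested, since each line had 1 pair. The response of L929 minus that of NIH3T3 on the log2 scale was -1.09 for Fos (-0.28 in L929 and 0.82 in NIH3T3), 0.56 for Fosl1 (0.35 and -0.21), -0.68 for Jun (-0.34 and 0.34) and -0.50 for Jund (-0.36 and 0.13). With arrays centred on their medians Jund was negative in both lines, and the other 3 kept opposite signs. With quantile normalization all 4 kept opposite signs, and Jund was -0.26 in L929 and 0.12 in NIH3T3.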

How the results depend on the processing

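The 10 factors gave 0 calls for the IFN-β effect over the lines and 0 for the interaction under each alternative run. Over all genes the count of 146 for the IFN-β effect was 2 with no replicate block and between 116 and 223 with a line left out. The interaction count of 47 was 0 with arrays centred on their medians and with quantile normalization; the cause was not tested. At lower fold thresholds more genes pass by construction. At 2-fold the counts were 1 change of a factor and 242 genes in RAW264.7, 389 in L929 and 402 in NIH3T3, and at 1.5-fold 6, 834, 2162 and 2863. The median change of the 10 in NIH3T3 was -0.007 with arrays centred on their medians, in place of 0.26. The 2 rescalings differed there. Changes in NIH3T3 ran from -0.481 for Fosl1 to 0.545 for Fos with centring. With quantile normalization they ran from -0.23 for Fosl1 to 0.688 for Junb. Without NIH3T3 the level of Jun in RAW264.7 minus the fibroblast lines was 0.421 and without L929 -1.916, against -0.75, because the fibroblast mean then holds 1 line alone. The counts of factors called in the 4 level comparisons stayed within 1.5 times under every alternative run. Egr2 lay under the filter at the median level and has no value there. Array number, and the lack of any background call, limit the precision of all values.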
